A study of Arabidopsis thaliana with 6 samples.

Results

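The 26S proteasome genes were compared between rse1-1 and Ler leaves of Arabidopsis thaliana. The members are 49 loci, out of the 33602 genes of the counts, that encode the alpha and beta subunits of the 20S core particle (23 loci) and the RPT and RPN subunits of the 19S regulatory particle (26 loci). They were chosen by locus identifier, without a threshold on measured values. The study sequenced polyA RNA from leaves 3 and 4 of soil-grown plants at 16 days after sowing, before any yellowing was seen, with 3 biological replicates of each genotype. The mutant rse1-1 is a single EMS allele in the Ler accession with a premature stop codon in RSE1, which encodes a glycosyltransferase-like protein. Ler is its wild type. Both genotypes grew at 22 °C with 16 h of light, and neither received a treatment. The libraries held 10360028 to 15244500 counts on genes in rse1-1 and 9960144 to 11626752 in Ler, and levels are in CPM (counts per 1000000 counts of the library, TMM-scaled with factors of 0.991 to 1.01). Whether a gene differs was judged by edgeR's quasi-likelihood test over the 16294 genes that passed its filter, at an adjusted p under 0.05.

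The 26S proteasome is the protease of the cytosol and nucleus that degrades proteins tagged with chains of ubiquitin. The barrel-shaped 20S core is made of outer rings of alpha subunits, which gate the entrance, and inner rings of beta subunits, of which the PBA, PBB and PBE types carry the catalytic sites. The 19S particle caps the barrel: its RPT subunits form a ring of ATPases that unfolds the substrate, RPN1 and RPN2 serve as scaffolds, RPN10 and RPN13 bind ubiquitin, and RPN11 in the lid removes the ubiquitin chain before the substrate enters. Many subunits are encoded by a pair of paralogous genes in Arabidopsis. The NAC transcription factors NAC053 and NAC078 are known to activate proteasome genes in Arabidopsis through a promoter element that contains the letters TGGGC, and transcripts of many subunits rise together when the proteasome is inhibited. Senescing leaves recycle their proteins, and the proteasome is one of the routes.

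Of the 49 members, 44 had a mean of at least 10 counts per library and are called measured, and all 44 were tested. In rse1-1 leaves, 26 of the 44 were higher (59.1%), against 38.8% of all genes tested, and 2 were lower (4.55%), against 38.3% of all genes tested. The remaining 16 did not pass the test. The shifts were small. The median log2 fold change of the measured members was 0.25, a fold of 1.19, while the median over all genes tested was -0.0086. Added over the 49 members, the level was 3887, 3888 and 3905 CPM in the rse1-1 libraries, against 3284, 3207 and 3223 CPM in the Ler libraries, so each rse1-1 library lay above every Ler library. A log2 fold change above 1 was reached by 2 members, PBC2 and PBF1, and by 17.4% of all genes tested. In 29 of the 44 measured members the libraries of the 2 genotypes did not overlap. The share of all genes without overlap was not counted, and 12548 of the 16294 genes tested were called.

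**Figure D1:**
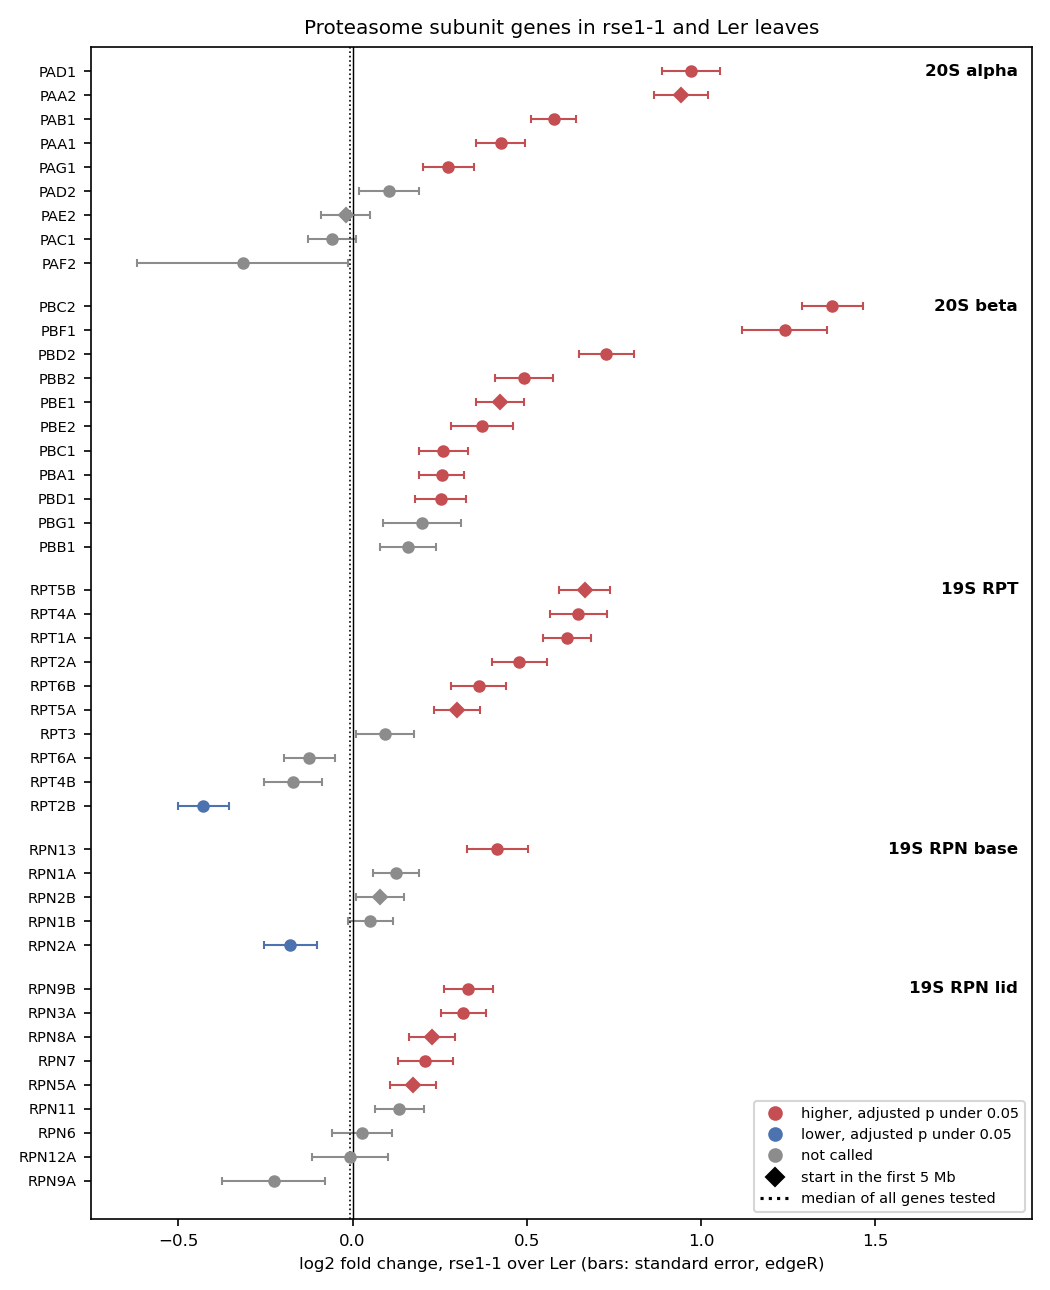
Log2 fold change of the 44 measured proteasome members in rse1-1 over Ler (horizontal axis; bars, standard error from edgeR), ordered within the 5 subunit classes, with diamonds for genes within 5 Mb of a chromosome's start and a dotted line for the median of all genes tested. The called members sit right of 0 with the exceptions of RPT2B and RPN2A, and the spread runs from -0.43 to 1.38; with upper quartile scaling, which lowers every value by about the same amount, 14 members are called higher and 7 lower, beside 31.4% and 46.8% of all genes tested.

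The size of the shift depended on how the libraries were scaled. With upper quartile scaling the median over all genes tested became -0.20 and that of the members 0.06, and 40.1% of the called genes were higher in rse1-1, against 50.3% with TMM. Among the 44 members it then called 14 higher (31.8%), close to the 31.4% of all genes tested, and 7 lower (15.9%), against 46.8% of all genes tested. The share of members called higher thus stood above that of all genes with TMM but not with upper quartile scaling. Relative to the median of all genes tested, the members' median lay 0.26 higher under both scalings. A change of scaling moves every log2 fold change by about the same amount, so this equality is no separate check. The 14 members PAA1, PAA2, PAB1, PAD1, PBB2, PBC2, PBD2, PBE1, PBF1, RPT1A, RPT2A, RPT4A, RPT5B and RPN13 were called higher, and RPT2B lower, with TMM and in each of the 14 other fits. They are the same 14 that upper quartile scaling called higher, a share close to that of all genes tested. How many of all genes keep their call in every fit was not counted.

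A limit on position applies to most members. The study aligned reads to a Ler genome rebuilt from the Col-0 genome, and genes far from a chromosome's start more often lack reads. Of 5575 protein-coding genes that start within 5 Mb of a chromosome's beginning, 71.9% had a mean of at least 10 counts, as did 54.6% of the 21137 beyond that distance. Of the proteasome members, 8 lie in the first 5 Mb and all 8 were measured; of the 41 past it, 36 were measured. The 5 that were not are PAB2 and RPN5B, at 0 counts in all 6 libraries, PAF1 at 0 to 1, PAE1 at 0 to 4 and RPN10 at 2 to 12 counts, and all 5 lie past 17 Mb. A count of 0 allows up to 3 counts, 0.195 to 0.304 CPM in these libraries, counting error only. Per kb of exon, the measured members ranged from 35.0 to 131 CPM in the first 5 Mb and from 0.784 to 101 CPM past it. UBQ5, which the study used to normalize qRT-PCR, starts at 23.0 Mb and had 0 to 1 counts per library. Whether reads past the first 5 Mb were assigned to the gene named was not tested and cannot be told for a single gene from its counts. The values of the 36 measured members there, and the counts of called members that include them, carry this doubt. The 8 members near the chromosome starts are therefore described first. Coordinates are those of TAIR10.1.

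The 8 members in the first 5 Mb come from every class of subunit. In rse1-1, 6 of the 8 were higher (75%) and 0 lower, against 38.8% and 38.3% of all genes tested. The median log2 fold change of the 8 was 0.26. Their added level was 1246, 1246 and 1240 CPM in the rse1-1 libraries, against 1024, 972 and 995 CPM in the Ler libraries. With upper quartile scaling 3 of the 8 were higher and 1, PAE2, was lower, beside 31.4% and 46.8% of all genes tested.

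PAA2 (AT2G05840, chromosome 2, 2234019 to 2236470) encodes an alpha subunit of the outer ring and showed the largest difference of the 8. It had 157, 152 and 151 CPM in the rse1-1 libraries, against 86.7, 71.8 and 80.8 CPM in the Ler libraries (log2 fold change 0.94, standard error 0.0763, edgeR adjusted p = 2.94e-08). The 2 groups were far apart, the lowest rse1-1 library lying well above the highest Ler library. PAE2 (AT3G14290, chromosome 3, 4764024 to 4766609), another alpha subunit, had 80.4, 84.0 and 75.3 CPM in the rse1-1 libraries, against 85.0, 80.4 and 77.7 CPM in the Ler libraries. Its libraries overlapped and the difference did not pass the test (log2 fold change -0.02, standard error 0.0714, edgeR adjusted p = 0.803). PBE1 (AT1G13060, chromosome 1, 4452190 to 4454900) encodes a catalytic beta subunit. It had 204, 205 and 217 CPM in the rse1-1 libraries, against 165, 155 and 148 CPM in the Ler libraries (log2 fold change 0.42, standard error 0.0694, edgeR adjusted p = 5.51e-05), and the groups did not overlap.

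The RPT5 pair, ATPases of the 19S base, lies wholly in this region. RPT5A (AT3G05530, chromosome 3, 1603359 to 1606243), the member with the highest level per kb, had 248, 251 and 243 CPM in the rse1-1 libraries, against 205, 195 and 203 CPM in the Ler libraries (log2 fold change 0.30, standard error 0.0651, edgeR adjusted p = 0.000698). RPT5B (AT1G09100, chromosome 1, 2936528 to 2939363) had 68.6, 62.0 and 65.5 CPM in the rse1-1 libraries, against 42.2, 40.6 and 41.1 CPM in the Ler libraries (log2 fold change 0.67, standard error 0.0735, edgeR adjusted p = 9.13e-07). Both genes were higher in every rse1-1 library than in any Ler library. RPN2B (AT1G04810, chromosome 1, 1350080 to 1355466), a scaffold of the base, had 145, 135 and 136 CPM in the rse1-1 libraries, against 128, 129 and 139 CPM in the Ler libraries. These values overlapped, and RPN2B did not pass the test (log2 fold change 0.08, standard error 0.0687, edgeR adjusted p = 0.308).

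The lid subunits of this region differed least among those called. RPN5A (AT5G09900, chromosome 5, 3089278 to 3093020) had 217, 226 and 217 CPM in the rse1-1 libraries, against 201, 189 and 194 CPM in the Ler libraries (log2 fold change 0.17, standard error 0.0656, edgeR adjusted p = 0.0253). The groups did not overlap, but the call was lost without Ler library 2 (adjusted p = 0.113) and without Ler library 3 (adjusted p = 0.0723). RPN8A (AT5G05780, chromosome 5, 1735725 to 1738740), which pairs with the deubiquitinase RPN11 in the lid, had 125, 132 and 136 CPM in the rse1-1 libraries, against 112, 111 and 112 CPM in the Ler libraries (log2 fold change 0.23, standard error 0.0662, edgeR adjusted p = 0.006). The 3 Ler libraries were nearly equal and every rse1-1 library exceeded them.

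**Figure D2:**
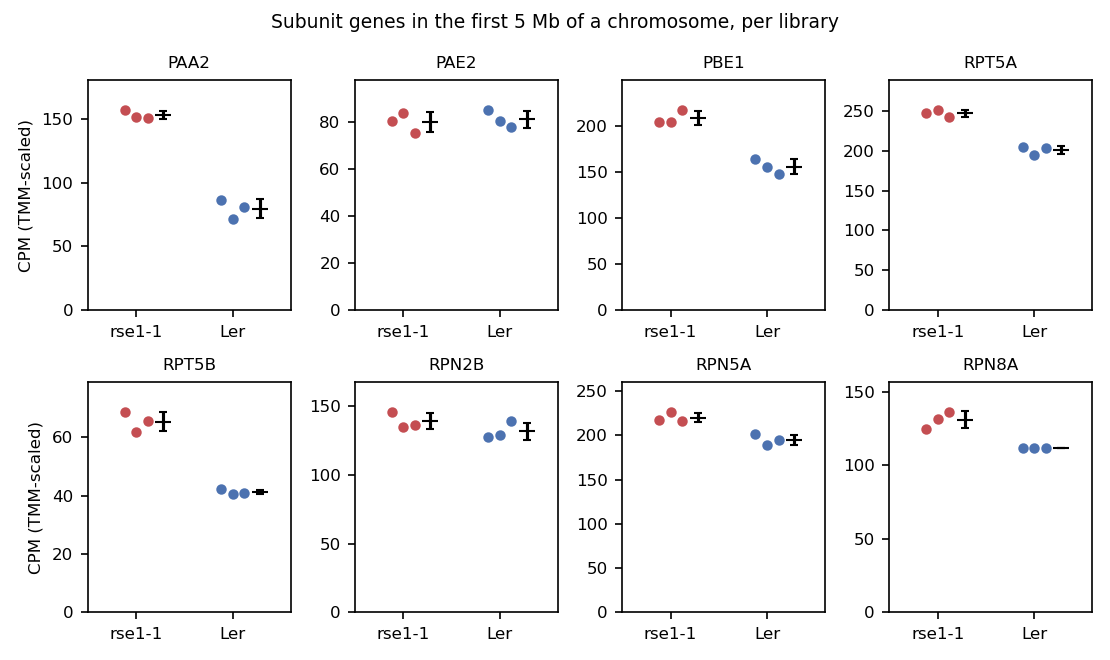
TMM-scaled CPM (vertical axes, from 0) of the 8 members within 5 Mb of a chromosome's start, one point per library, rse1-1 in red and Ler in blue, with the mean and SD (n = 3) in black beside each group. PAA2, PBE1, RPT5A, RPT5B, RPN5A and RPN8A show no overlap between the genotypes, while PAE2 and RPN2B overlap. The share of all genes without overlap was not counted.

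In the 20S core particle, 20 of the 23 members were tested. In rse1-1, 14 were higher (70%) and 0 lower, against 38.8% and 38.3% of all genes tested. The median log2 fold change was 0.32. The 19S particle had 24 of its 26 members tested, with 12 higher (50%), 2 lower (8.33%) and a median of 0.15. Upper quartile scaling turned this median to -0.04, while the 20S median stayed above 0 at 0.13. That scaling called 9 of the 20S members higher and 2 lower, and 5 of the 19S members higher and 5 lower. Of all genes tested it called 31.4% higher and 46.8% lower. These shares of all genes, for each scaling, also stand beside the counts of the subunit classes below. The difference between the particles was not tested. The added level of the 20S members was 1555, 1594 and 1595 CPM in rse1-1, against 1230, 1165 and 1157 CPM in Ler. That of the 19S members was 2332, 2294 and 2310 CPM in rse1-1, against 2054, 2042 and 2066 CPM in Ler. On this TMM scale the added level of each particle was higher in every rse1-1 library than in any Ler library.

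Of the alpha subunits, 5 of 9 tested were higher (55.6%, against 38.8% of all genes tested), with a median log2 fold change of 0.27. The higher ones are PAA1, PAA2, PAB1, PAD1 and PAG1. Upper quartile scaling left 4 higher and called 2, PAC1 and PAE2, lower. PAD1 (AT3G51260, chromosome 3, 19030926 to 19033134) differed most, with 49.2, 50.7 and 45.7 CPM in the rse1-1 libraries, against 25.9, 23.3 and 25.0 CPM in the Ler libraries (log2 fold change 0.97, standard error 0.0839, edgeR adjusted p = 6.08e-08). The alpha subunits PAC1, PAD2, PAE2 and PAF2 did not pass the test, with log2 fold changes of -0.06, 0.11, -0.02 and -0.32, and PAF2 rests on 8 to 13 counts per library.

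All 11 beta subunits were tested, and 9 were higher (81.8%, against 38.8% of all genes tested), with a median log2 fold change of 0.37. Among the 9 were the catalytic PBA1 (0.26), PBB2 (0.49), PBE1 (0.42) and PBE2 (0.37). PBB1 (0.16) and PBG1 (0.20) did not pass the test. With upper quartile scaling 5 of the 11 were higher, beside 31.4% of all genes tested. The calls of PBA1 (edgeR adjusted p = 0.391) and PBE2 (edgeR adjusted p = 0.0821) were then lost. The largest difference of all members was that of PBC2 (AT1G77440, chromosome 1, 29096020 to 29098494), a structural subunit of the inner ring. PBC2 had 46.3, 47.3 and 46.2 CPM in the rse1-1 libraries, against 19.7, 16.8 and 17.4 CPM in the Ler libraries (log2 fold change 1.38, standard error 0.0878, edgeR adjusted p = 2.05e-09). PBF1 (AT3G60820, chromosome 3, 22471769 to 22473971), the single gene of its subunit, had 27.1, 27.4 and 22.4 CPM in the rse1-1 libraries, against 9.73, 10.3 and 12.3 CPM in the Ler libraries (log2 fold change 1.24, standard error 0.122, edgeR adjusted p = 2.65e-07). PBD2 (AT4G14800, chromosome 4, 8500193 to 8502589) had 58.7, 53.9 and 55.8 CPM in the rse1-1 libraries, against 35.9, 33.7 and 32.3 CPM in the Ler libraries (log2 fold change 0.73, standard error 0.0782, edgeR adjusted p = 6.80e-07). None of these 3 genes overlapped between the genotypes, and all 3 lie past the first 5 Mb.

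Of the RPT ATPases, 6 of 10 were higher (60%) and 1 was lower (10%), against 38.8% and 38.3% of all genes tested. The median log2 fold change of the ATPases was 0.33. The higher ones were RPT5B (0.67), RPT4A (0.65), RPT1A (0.62), RPT2A (0.48), RPT6B (0.36) and RPT5A (0.30). RPT3, RPT4B and RPT6A did not pass the test (0.09, -0.17 and -0.12). With upper quartile scaling 4 of the 10 were higher and 3 lower, since RPT4B (-0.36) and RPT6A (-0.32) were then called lower beside RPT2B, and the median was 0.14. RPT2B (AT2G20140, chromosome 2, 8692567 to 8695111) was the ATPase called lower with TMM, with 52.1, 56.8 and 49.9 CPM in the rse1-1 libraries, against 71.6, 71.7 and 70.1 CPM in the Ler libraries (log2 fold change -0.43, standard error 0.0729, edgeR adjusted p = 7.86e-05). Its groups did not overlap, and its paralogue RPT2A was higher in rse1-1.

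Of the 5 measured non-ATPase subunits of the base, RPN13 was higher (0.42) and RPN2A lower, with a median log2 fold change of 0.08 that upper quartile scaling turned to -0.11. RPN13 is a ubiquitin receptor. The scaffolds RPN1A (0.13), RPN1B (0.05) and RPN2B (0.08) did not pass the test. RPN2A (AT2G32730, chromosome 2, 13879959 to 13885736) had 123, 113 and 110.2 CPM in the rse1-1 libraries, against 121, 130.3 and 141 CPM in the Ler libraries (log2 fold change -0.18, standard error 0.0768, edgeR adjusted p = 0.0458). These libraries overlapped, and the call was lost in 10 of the 14 other fits, among them those without Ler library 2 (adjusted p = 0.0951), Ler library 3 (adjusted p = 0.225), rse1-1 library 2 (adjusted p = 0.133) or rse1-1 library 3 (adjusted p = 0.157).

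In the lid, 5 of 9 measured members were higher (55.6%, against 38.8% of all genes tested), and the median was 0.17. The higher ones were RPN9B (0.33), RPN3A (0.32), RPN8A (0.23), RPN7 (0.21) and RPN5A (0.17). With upper quartile scaling none of these 5 was called, RPN9A was called lower (-0.42), and the median was -0.02. RPN7 (AT4G24820, chromosome 4, 12789030 to 12792729) had 105, 117 and 129.7 CPM in the rse1-1 libraries, against 99.8, 101 and 103 CPM in the Ler libraries (log2 fold change 0.21, standard error 0.0789, edgeR adjusted p = 0.0255). Its groups did not overlap, yet the call was lost without Ler library 1 (adjusted p = 0.0516), Ler library 2 (adjusted p = 0.0741) or rse1-1 library 3 (adjusted p = 0.120). The deubiquitinase RPN11 (0.13), RPN6 (0.03), RPN9A (-0.23) and RPN12A (-0.01) did not pass the test.

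Subunits encoded by paralogous pairs allow a comparison within each library, free of scaling. It is not free of the limit on position, since only the RPT5 pair has both genes in the first 5 Mb. For 13 of the 17 pairs among the members both genes were measured. The coding sequences of the pairs were 76.8% to 94.4% identical, and only RPT6A and RPT6B share any stretch as long as a read of 75 bases, at 48 of 1186 positions, so that reads of those 2 genes could be lost as not unique. The balance was expressed as the log2 ratio of the first gene to the second, in CPM per kb of exon. With 3 libraries against 3, the exact permutation test (two-sided) cannot give a p below 0.1, so no pair can pass 0.05.

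PBC1 against PBC2 shifted most. The log2 ratio was 0.99, 1.06 and 1.10 in the rse1-1 libraries, against 2.11, 2.21 and 2.17 in the Ler libraries, a change of -1.12 (exact permutation p = 0.1, n = 3 each). PBC1 had the higher level per kb in all 6 libraries, by a smaller margin in rse1-1. For RPT2A against RPT2B the ratio was 0.11, -0.20 and 0.13 in rse1-1, against -0.90, -0.90 and -0.87 in Ler, and for PAD1 against PAD2 it was 0.11, 0.34 and 0.04 in rse1-1, against -0.54, -0.79 and -0.78 in Ler. In both pairs one gene led in Ler, RPT2B and PAD2, and the mean ratio in rse1-1 was near even, at 0.01 and 0.17. RPT4A against RPT4B had -0.79, -0.85 and -0.46 in rse1-1, against -1.49, -1.53 and -1.54 in Ler. All genes of the PBC, RPT2, PAD and RPT4 pairs start past the first 5 Mb, where the assignment of reads to genes was not tested.

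The RPT5 pair is the one with both genes in the first 5 Mb. Its log2 ratio was 1.689, 1.855 and 1.726 in rse1-1, against 2.118, 2.097 and 2.143 in Ler, a change of -0.36, without overlap between the genotypes (exact permutation p = 0.1, n = 3 each). RPT5A therefore led RPT5B in every library. The ratios of PBE1 to PBE2 and of RPN1A to RPN1B overlapped between the genotypes, with changes of 0.05 and 0.07.

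**Figure D3:**
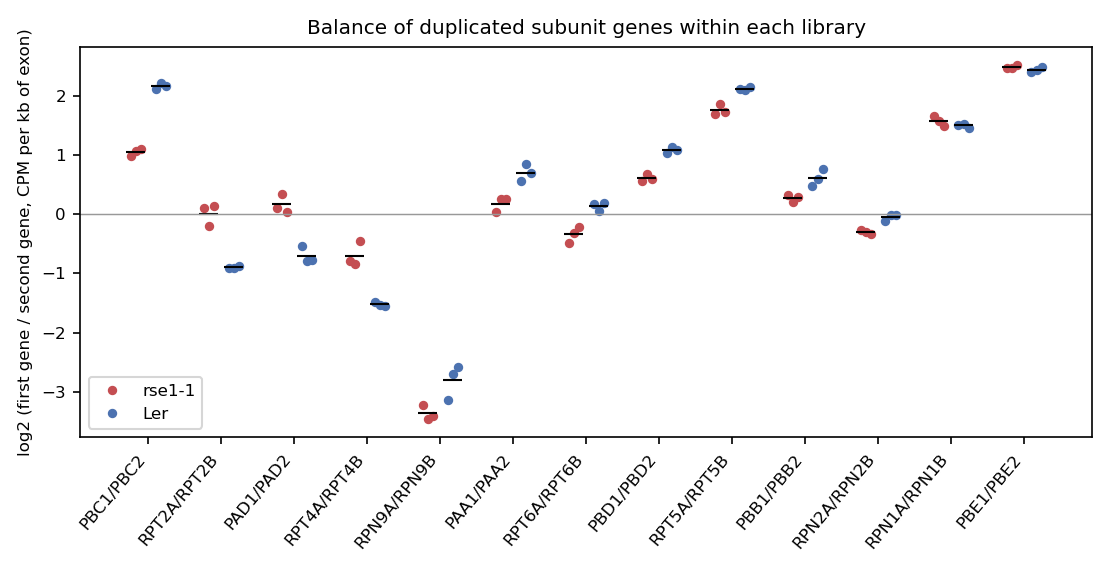
Log2 ratio of the first to the second gene of each pair (vertical axis, from CPM per kb of exon), one point per library, with rse1-1 in red left of Ler in blue and a black line for the mean of each group; pairs are ordered by the size of the change. PBC1/PBC2 shifts by -1.12 and RPT2A/RPT2B by 0.90, while PBE1/PBE2 and RPN1A/RPN1B overlap between the genotypes.

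Genes next to the members with the largest and smallest called changes were read from the same fit. PAA2, in the first 5 Mb, was higher in rse1-1 while AT2G05830, 1870 bases away, was lower (log2 fold change -0.74). PBF1 was higher while ARP7, which lies 12 bases from it, was lower (-0.72). RPT2B was lower while both of its neighbours, LCV1 (0.41) and AT2G20142 (0.98), were higher. RPN7 was higher while AT4G24810, which overlaps it, was lower (-0.74). RPN2A was lower while GT13, 1058 bases away, was higher (0.21). In these 5 cases the member and its neighbour were called in opposite directions. Of all genes tested, 38.8% were called higher and 38.3% lower, and how often any adjacent genes differ in direction was not counted. Neighbours that were not tested or did not pass the test are not listed. The calls of RPN2A and RPN7 were lost in 10 and 4 of the 14 other fits. RPN5A and AT5G09890 (0.64) moved the same way, as did PBC2 and NAC032 (0.18, edgeR adjusted p = 0.0394), 1345 bases away. An antisense gene overlaps 15 of the members, among them PBD2, PBF1, RPT5B, RPN5A and RPN7, and the sources used here do not state the strand setting of the counting, so reads of the partner cannot be told apart there. Of the 34 members without such an overlap, 31 were tested, with a median log2 fold change of 0.26. Of these 31, 18 were higher (58.1%) and 2 lower (6.45%), against 38.8% and 38.3% of all genes tested.

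The promoters were searched for TGGGC, on either strand (as GCCCA on the other), in the 250 bases before each annotated gene start of TAIR10.1, which is the Col-0 sequence and not that of Ler. The motif was found before 23 of the 49 members (46.9%) and before 6231 of 27444 protein-coding genes (22.7%). The latter include genes without reads in these leaves, and the share among genes with reads was not counted. At least 3 matches were present in 8 members (16.3%) and in 5.26% of protein-coding genes. Among the measured members, those with a match were 11 of the 26 that were higher (42.3%) and 10 of the 18 that were not (55.6%), so a match was not more frequent among those that were higher. In the first 5 Mb, 2 of the 8 members had a match. A match is a description of letters and does not show binding.

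The windows of 4 members, none of which overlaps another annotated gene, show this range, 5′ to 3′ in the direction of the gene and with the matches in capitals. They are PBB2 (chr5:16250926-16251175, minus strand) and PBA1 (chr4:15188494-15188743, plus strand), catalytic subunits that were higher, RPN1B, which has the most matches and did not pass the test (chr4:14072583-14072832, minus strand), and PAA2, which has none and was the most changed of the first 5 Mb (chr2:2233769-2234018, plus strand).
PBB2: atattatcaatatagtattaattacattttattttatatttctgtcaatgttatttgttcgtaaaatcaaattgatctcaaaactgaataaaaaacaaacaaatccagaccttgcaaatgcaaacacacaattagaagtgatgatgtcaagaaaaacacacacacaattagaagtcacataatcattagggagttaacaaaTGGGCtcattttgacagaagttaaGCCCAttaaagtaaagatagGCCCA
PBA1: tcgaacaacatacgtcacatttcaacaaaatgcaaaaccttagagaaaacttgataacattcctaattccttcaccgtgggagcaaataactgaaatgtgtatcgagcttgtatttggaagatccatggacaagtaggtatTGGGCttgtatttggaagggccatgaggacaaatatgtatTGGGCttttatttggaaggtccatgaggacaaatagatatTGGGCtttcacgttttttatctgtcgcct
RPN1B: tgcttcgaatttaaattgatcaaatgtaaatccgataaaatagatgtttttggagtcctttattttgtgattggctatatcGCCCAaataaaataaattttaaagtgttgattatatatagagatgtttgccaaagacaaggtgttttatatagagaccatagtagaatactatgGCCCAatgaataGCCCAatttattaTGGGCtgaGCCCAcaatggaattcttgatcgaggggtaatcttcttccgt
PAA2: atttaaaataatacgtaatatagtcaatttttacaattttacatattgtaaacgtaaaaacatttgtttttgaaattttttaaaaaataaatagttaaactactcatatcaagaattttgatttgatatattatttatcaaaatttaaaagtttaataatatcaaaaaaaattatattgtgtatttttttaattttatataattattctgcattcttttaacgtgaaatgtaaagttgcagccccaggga
PBB2 and PBA1 hold 3 matches each, and RPN1B holds 5. In PBA1 all 3 read TGGGC in the direction of the gene. The log2 fold changes of these genes were 0.49, 0.26, 0.05 and 0.94 in the order printed. With upper quartile scaling the call of PBA1 was lost (edgeR adjusted p = 0.391).

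Around the proteasome, 15 of 18 regulators, assembly and shuttle factors were tested. In rse1-1, 10 were higher (66.7%) and 2 lower (13.3%), against 38.8% and 38.3% of all genes tested. The median log2 fold change of these 15 was 0.54. Upper quartile scaling called 10 higher and 4 lower, beside 31.4% and 46.8% of all genes tested. The 2 NAC activators both lie in the first 5 Mb. NAC053 (AT3G10500) had 2890, 1680 and 2134 counts in rse1-1, against 162, 146 and 159 in Ler (log2 fold change 3.55, standard error 0.0929, edgeR adjusted p = 1.62e-13). NAC078 (AT5G04410) had 3665, 2349 and 2883 counts in rse1-1, against 1318, 1330 and 1532 in Ler (log2 fold change 0.81, standard error 0.0648, edgeR adjusted p = 2.56e-08). Neither gene overlapped between the genotypes. The largest log2 fold change of a proteasome member was 1.38, that of PBC2, between the values of these 2 activators.

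PA200 (AT3G13330), an alternative cap that opens the 20S core without ubiquitin or ATP, had 8036, 5292 and 6324 counts in rse1-1, against 1466, 1463 and 1789 in Ler (log2 fold change 1.78, standard error 0.0692, edgeR adjusted p = 8.33e-12). The log2 fold changes of the 19S members reached 0.67 at most. CDC48C, a form of the ATPase that extracts ubiquitinated proteins from complexes and membranes, was higher (log2 fold change 1.04), as was the ubiquitin shuttle DSK2B (0.91). RAD23C and RAD23B, shuttle factors of another family, were lower (-0.71 and -0.81). The regulator PTRE1 and the assembly chaperone UMP1A, both past the first 5 Mb, were at 0 counts in all libraries.

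Of the ubiquitin, E1 and E2 genes, 12 of 18 were tested, with 8 higher, 0 lower and a median of 0.42; with upper quartile scaling 7 were higher and 3 lower. Those with the smallest adjusted p were UBC11, an E2 conjugating enzyme (1.06), and the polyubiquitin genes UBQ10 (1.04), UBQ11 (0.98) and UBQ4 (0.72). The study counted uniquely mapped reads alone, and sequence shared among the polyubiquitin genes was not examined. UBQ5, which the study used to normalize qRT-PCR, had 1, 0 and 0 counts in rse1-1, against 0, 0 and 0 in Ler, and lies 23.0 Mb from the start of chromosome 3. In the core of the cullin-RING ligases, 4 of 7 were higher and 1 lower (median 0.18; with upper quartile scaling 1 higher, 2 lower and a median of -0.01), with CUL1 at 0.49 and RUB1 at -0.46. In the COP9 signalosome, a complex that resembles the lid, 3 of 9 were higher and 2 lower (median 0.13; with upper quartile scaling 2 higher, 3 lower and a median of -0.06), with CSN5B at 0.79, CSN8 at 0.65, CSN1 at -0.68 and CSN6B at -0.82. The share called higher was thus 66.7% among the ubiquitin genes, 57.1% in the ligase core and 33.3% in the signalosome, beside 38.8% of all genes tested. With upper quartile scaling 31.4% of all genes tested were higher and 46.8% lower. Differences between the lists were not tested.

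**Figure D4:**
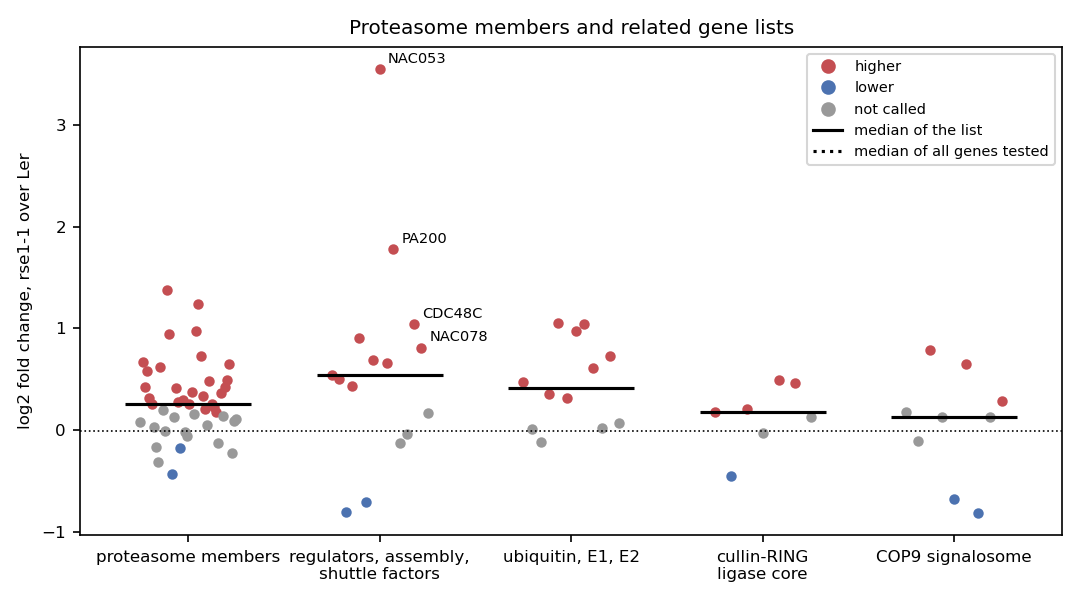
Log2 fold change in rse1-1 over Ler (vertical axis) of each tested gene in the proteasome members and 4 related lists, red for higher, blue for lower and gray for not called, with a black line for each list's median and a dotted line for the median of all genes tested. NAC053 at 3.55 and PA200 at 1.78 stand above every proteasome member, and the medians run from 0.13 for the COP9 signalosome to 0.54 for the regulators; with upper quartile scaling those of the ligase core and the signalosome fall below 0.

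Other differences between the libraries moved with the genotype. All 12 leaf mesophyll markers, among them photosystem proteins and CA1, were lower in rse1-1 (median -0.79), beside 38.3% of all genes tested. Their added level was 14814 to 17746 CPM in rse1-1, against 27608 to 30006 CPM in Ler. CPM are shares of a library, and fewer cells of a type cannot be told apart from less RNA per cell. Of the guard cell, trichome and phloem markers 4 of 7 were measured, and 3 of these were lower, with KAT1 higher (log2 fold change 1.04, edgeR adjusted p = 2.24e-08). Of the dividing cell markers 5 of 7 were measured, 4 of them lower, with CYCD3-1 higher (2.79). The limit on position applies to markers too, as KAT1 starts at 18.7 Mb and CYCD3-1 at 16.4 Mb of their chromosomes. Of the 12 mesophyll markers, 10 start in the first 5 Mb. RBCS1A, at 25.0 Mb, had the lowest level of the 12, 49.4 CPM per kb of exon. None of the 6 flower and meristem markers was measured. The part of these differences in the proteasome values was not tested. RSE1 itself had 290, 219 and 264 counts in rse1-1, against 563, 552 and 667 in Ler (log2 fold change -1.47, standard error 0.0832, edgeR adjusted p = 5.33e-10); it lies 7.31 Mb from the start of chromosome 5, and these counts cannot tell the mutant base from the wild-type base.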

How the data were processed

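Leaf mRNA of 3 rse1-1 and 3 Ler libraries was used, grouped by the genotype in the labels. The authors sequenced stranded libraries, trimmed the reads with Trimmomatic 0.32.3, aligned them with TopHat2 2.0.9 to a Ler-0 genome rebuilt from Col-0 (TAIR10), removed duplicates with Picard 1.119, and deposited raw counts per gene from HTSeq 0.6.1. The strand setting and annotation version are not given in the sources used here. Entries naming no gene (47.0% to 48.7% of a library) were left out. Members and gene lists were chosen with earlier results of these data known.

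Counts were tested with edgeR 4.0.16 in R 4.3.3 (TMM, filterByExpr with a minimum count of 10, genotype alone, quasi-likelihood test, Benjamini-Hochberg over 16294 genes). The standard error is the log2 fold change divided by the square root of F. Of 33602 identifiers, 32835 matched RefSeq TAIR10.1, which gave symbols, positions, exon lengths and sequences. Values per library are given for members in the first 5 Mb of a chromosome, the 5 largest and 5 smallest changes among called members, and RSE1; of other lists at most 4 genes with the smallest adjusted p were named, besides NAC053, NAC078 and UBQ5. RAD23B, RAD23C, PTRE1, UMP1A, RPN8B and the DSS1 genes were named after their values were seen. Alternatives were DESeq2 1.42.0, limma-voom (limma 3.58.1), RLE and upper quartile scaling, library size alone, other filters, a replicate block, and each library left out in turn. Tests were run on simulated counts in which 200 genes were changed. There edgeR recovered 200 of them and called 10 other genes. In the real data 12548 genes were called, so this simulation cannot check the choice of scaling.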

Additional observations from a re-analysis of the deposited data

How the results depend on the processing

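Of the measured members, 14 were higher and 1 (RPT2B) lower in rse1-1 in the main analysis and in all 14 other fits. The share of all genes that keep their call in every fit was not counted. With upper quartile scaling 14 members were higher (31.8%, beside 31.4% of all genes tested) and 7 lower (15.9%, beside 46.8%), 3 of those in the first 5 Mb were higher and 1 lower, and the median log2 fold change was 0.063. Under it 9 log2 fold changes turned negative, those of PAD2 (-0.086), PBB1 (-0.033), RPT3 (-0.098), RPN1A (-0.066), RPN1B (-0.14), RPN2B (-0.11), RPN5A (-0.017), RPN6 (-0.16) and RPN11 (-0.057). This scaling shifts all genes by about the same amount, so the members' distance from the median of all genes had to stay at 0.26. The number of lower members was 1 in place of 2 with DESeq2, with RLE scaling, with library size alone, without a filter, with at least 10 counts in every library and with the replicate block, where the call of RPN2A was lost. The median was 0.28 with DESeq2, 0.27 with RLE scaling and 0.28 with at least 10 counts in every library. A log2 fold change beyond 1 left 2 members higher, 0 lower, and 0 higher in the first 5 Mb. PAE2 and RPN12A, both near 0, changed sign. PAE2 was 0.0072 with DESeq2, 0.00027 with RLE scaling and 0.0045 with at least 10 counts in every library, and RPN12A was 0.019, 0.013 and 0.018 in these fits and 0.0080 with library size alone; the cause was not tested.

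When single libraries were left out, the number of higher members stayed between 24 and 28 and that of lower members between 1 and 4. It was 4 without Ler library 1 and 1 without Ler library 2, Ler library 3 or rse1-1 library 3. The median stayed between 0.23 (without Ler library 3) and 0.28 (without rse1-1 library 1). Values ranged from -0.051 to 0.026 for PAE2, from -0.057 to 0.11 for RPN6 and from -0.034 to 0.046 for RPN12A. Without the 15 members that an antisense gene overlaps, an alternative chosen after seeing the data, the median was 0.26. Libraries of the 2 genotypes share replicate numbers. Deviations from the group means of same-numbered libraries correlated at 0.042, 0.080 and -0.083. Those of differently numbered libraries correlated at -0.099 to 0.059. These values show no strong effect shared by number, but they cannot exclude that same-numbered samples were handled together. With the replicate number as a block, 26 members were higher and 1 lower. Depth limits PAF2, with 8 to 13 counts per library, and the 5 members that were not measured.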

Other observations

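Loci annotated for a proteasome subunit but outside the 49 members were read from the same fit. Of 7, 5 were measured. In rse1-1, 2 were higher (40%), 1 lower (20%) and 2 not called, against 38.8% higher and 38.3% lower of all genes tested. With upper quartile scaling 2 were lower, since PAC2 (-0.69) was then called. RPT1B, a paralogue of the ATPase gene RPT1A, had 1273, 797 and 985 counts in rse1-1, against 493, 543 and 584 in Ler (log2 fold change 0.63), close to the value of RPT1A (0.62). RPN12B had 2325, 1782 and 1863 counts in rse1-1, against 1017, 981 and 1222 in Ler (0.63), while its paralogue RPN12A did not pass the test (-0.01). At 133 CPM per kb of exon RPN12B stood above every member. It lies 16.8 Mb from the start of chromosome 5, where the assignment of reads to genes was not tested. RPN3B was lower (-0.42), a call lost with DESeq2 (adjusted p = 0.0921), without Ler library 3 (adjusted p = 0.0563) and without rse1-1 library 1 (adjusted p = 0.0859). RPN8B (0.13) and PAC2 (-0.50) did not pass the test, and DSS1-I and DSS1-V, which encode a small lid subunit, were at 0 counts in all libraries.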
